A study of Mus musculus with 32 samples.

Results

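The clustered protocadherins are 57 protein-coding genes in 3 neighbouring clusters on mouse chromosome 18, and open chromatin around them was followed here through reprogramming of fibroblasts to induced pluripotent stem cells. The members were taken by symbol from the RefSeq gene table of the build GRCm38.p6 and make up 57 of its 21900 protein-coding genes. The locus runs from position 36930285 to 37841873 and is 912 kb long. The alpha cluster has 14 genes in 259 kb (36930285 to 37188897), the beta cluster 22 genes in 256 kb (37264998 to 37521419) and the gamma cluster 21 genes in 180 kb (37661775 to 37841873). A space of 76.1 kb parts alpha from beta, and one of 140 kb parts beta from gamma. Over all peak lists the locus held 109 separate sites of open chromatin, out of 276187 in the genome.

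Protocadherins of these clusters are adhesion proteins of the cell surface, best known from neurons, where each cell uses a different combination of them and its processes recognise and avoid one another by it. Each alpha and gamma gene has its own large first exon with its own promoter, which is spliced to constant exons at the end of the cluster, whereas a beta gene is a single exon. Most of the promoters carry a binding site for CTCF, a zinc finger protein that anchors chromatin loops together with cohesin, and most alpha exons hold another CTCF site inside the exon. The loops bring a chosen promoter to distal enhancers, which lie downstream of the alpha first exons, in the space before the beta genes and behind the gamma genes. The 5 C-type genes (Pcdhac1, Pcdhac2, Pcdhgc3, Pcdhgc4 and Pcdhgc5) lie at the ends of the alpha and gamma clusters and are regulated differently from the variable genes.

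ATAC-seq, which marks accessible DNA by the cuts of a transposase, was run on 32 samples in 15 groups. The cells came from OG2-MEFs, embryonic fibroblasts with a GFP reporter of Pou5f1. Reprogramming was by expression of Oct4, Sox2, Klf4 and c-Myc (OSKM) in medium with vitamin C, counted in days from day 0. One series of 10 groups carried a control shRNA against luciferase (shLuci) or an shRNA against CTCF (shCTCF). It comprised unsorted cells of day 0 (2 samples per group), Thy1+ cells of days 3, 6 and 9 (3 samples), SSEA1-Thy1- cells of days 6 and 9 (2 samples), SSEA1+ cells of days 6 and 9 (2 samples) and GFP+ cells of day 12 (2 samples). The sorted cells were made with an inducible lentivirus of OSKM. Thy1 marks fibroblasts, SSEA1 an early step of reprogramming, and GFP a late one. At day 10, cells received OSKM with a control vector (oeControl), with CTCF overexpression from a pMXs retrovirus (oeCTCF), or with CTCF overexpression and an shRNA against Smarca5, the ATPase of ISWI remodelling complexes. At day 12, unsorted cells carried the control shRNA or the Smarca5 shRNA, and which OSKM vector they received is not clear from the labels. Each day 10 and day 12 group had 2 samples.

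Each group has 1 deposited list of peaks, so the values below lack a replicate check and come without p-values. The 95% intervals cover counting error over peaks only. Merged lists held 91337 to 213386 peaks in the day 0 and sorted groups, 66321 to 72414 at day 10, and 43618 and 44279 at day 12. The read depth behind the lists is unknown, and the peaks carry no score, so a missing peak says only that none passed the authors' threshold. Lists of different length are compared below, and the part of list length in each difference was not tested. A peak at the start of Ctcf itself was present in all 15 lists, which is no check of the knockdown. Markers were scored by a peak at the gene start, or at either gene end where no strand was known (3 of 10 fibroblast, 3 of 10 pluripotency and 1 of 10 neural markers). Of 10 fibroblast markers, 10 had such a peak in each day 0, Thy1+, SSEA1-Thy1- and SSEA1+ list and 8 in the GFP+ control list. Of 10 pluripotency markers the numbers were 4 at day 0 and 9 in GFP+ control cells. Of 10 neural markers they were 7 and 8.

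The first question was how open chromatin of the locus differed along the path from fibroblast to GFP+ cell. The control lists held 92 peaks in the locus in GFP+ cells, compared with 53 in SSEA1+, 54 in SSEA1-Thy1-, 67 in Thy1+ cells and 57 at day 0. The GFP+ list had the most of these 5 lists, although it was the shortest of them over the genome. In the same order the alpha cluster had 22, 9, 11, 12 and 10 peaks, and the beta cluster 27, 9, 8, 12 and 8. The gamma cluster had 35, 29, 29, 35 and 33. Alpha and beta thus had 22 and 27 peaks in GFP+ cells and 8 to 12 in each of the other 4 lists, whereas gamma had 29 to 35 in all 5. Per 100 kb, gamma had 18.3 peaks at day 0, alpha 3.87 and beta 3.12, and in GFP+ cells the 3 densities were 19.4, 8.51 and 10.5. The 500 kb on either side of the locus held 100 peaks in the day 0 list and 91 in the GFP+ list.

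**Figure D1:**
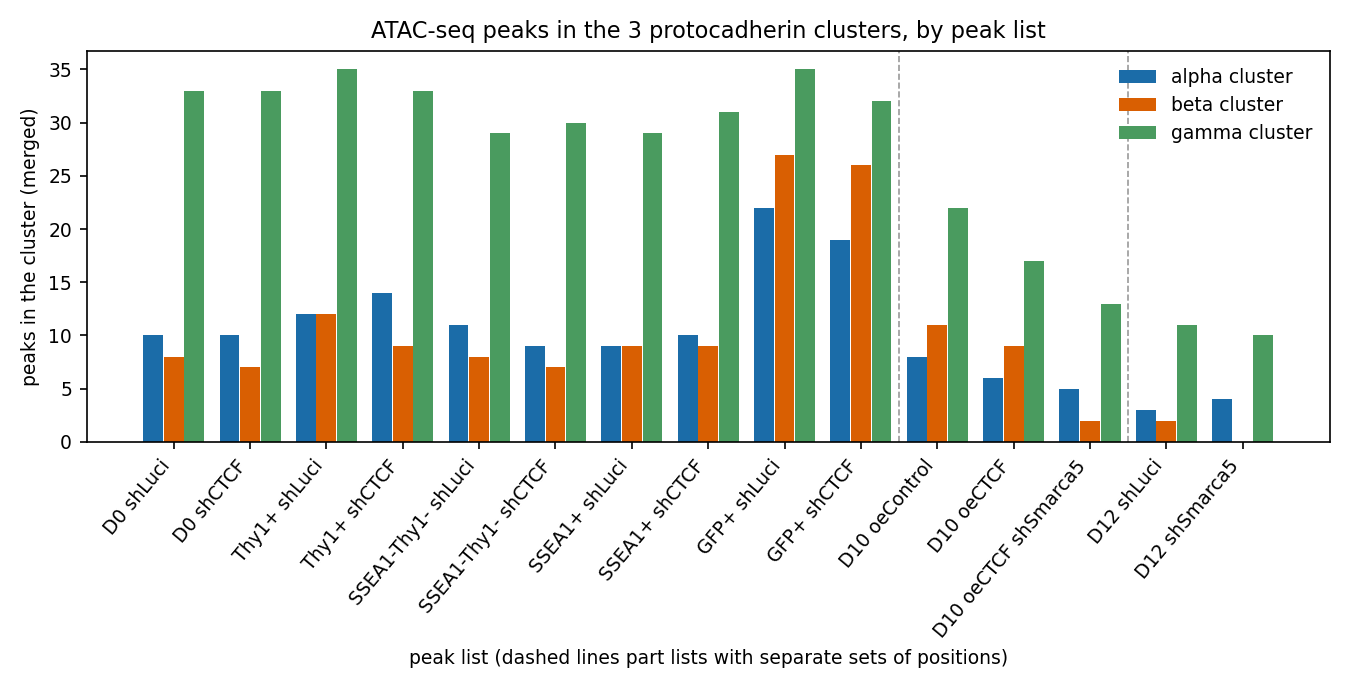
Peaks in the alpha, beta and gamma clusters, as bars from 0, in each of the 15 peak lists; dashed lines part the lists whose positions were defined separately. The gamma bars are the highest in every list, and the alpha and beta bars are highest in the GFP+ lists, at 22 and 27 with control shRNA.

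Set against the shortening of whole lists, the cluster numbers give a relative log2, which is the log2 ratio of peaks in the cluster minus the same ratio of whole lists. From day 0 to GFP+ cells it was 1.89 for alpha (0.75 to 3.13), 2.51 for beta (1.33 to 3.86), 0.84 for gamma (0.11 to 1.57) and 1.44 for the locus (0.95 to 1.95). The plain log2 ratio for gamma was 0.085, so its relative value comes from the shorter GFP+ list. For alpha, beta and the locus the plain ratios were 1.14, 1.75 and 0.69. The one for the locus lay below the interval of its relative value, which therefore depends on list length as well. The step from SSEA1+ to GFP+ cells gave 1.86 for alpha, 2.16 for beta, 0.84 for gamma and 1.37 for the locus. In the 3 earlier steps, all intervals of the clusters included 0. The difference therefore lay between the SSEA1+ and the GFP+ list, which are also 3 or more days apart.

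The peaks of the day 0 list were largely kept. Of the 57 locus peaks at day 0, 10 were missing in GFP+ cells, which is 17.5% (8.75% to 29.9%), against 67.6% of the whole list. Of the 92 GFP+ peaks, 45 had no counterpart at day 0, which is 48.9% (38.3% to 59.6%), against 45.5% of the whole list. Against whole lists, the locus thus differed in how few of its peaks were missing. Its share of new peaks did not differ beyond its interval, but the clusters went opposite ways. In beta 20 of 27 GFP+ peaks were new (74.1%, 53.7% to 88.9%), above the whole list. In gamma 6 of 35 were new (17.1%, 6.56% to 33.6%), below it. Alpha had 15 of 22 (68.2%, 45.1% to 86.1%), with an interval that included the share of the whole list. The whole lists were not split by position, and 33 of the 57 day 0 peaks lay at gene starts. At starts alone, compared with all genes below, the share of members gaining a peak was the one that differed. The interval of the share losing one included that of all genes. Of the 10 missing peaks, 1 lay at a gene start and 9 lay away from starts. Of the 45 new peaks, 12 lay at gene starts, 25 lay 1.5 to 2.5 kb downstream of a start and 8 elsewhere.

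A gene was counted as having a start peak when a peak overlapped the 1 kb on either side of its start. Of the 57 members, 43 had one in GFP+ control cells, compared with 31 in SSEA1+, 26 in SSEA1-Thy1-, 32 in Thy1+ cells and 32 at day 0. This is 56.1% at day 0 and 75.4% in GFP+ cells, and over all genes with a known strand the shares were 63.2% and 63.8%. In the alpha cluster 5 of 14 genes had a start peak at day 0 and 12 in GFP+ cells, in beta 7 and 10 of 22, and in gamma 20 and 21 of 21. Between those lists 12 of 25 members without a start peak gained one, which is 48.0% (27.8% to 68.7%), against 10.9% of all such genes. They were Pcdha1, Pcdha3, Pcdha5, Pcdha6, Pcdha8, Pcdha9, Pcdha11, Pcdhb1, Pcdhb3, Pcdhb11, Pcdhb20 and Pcdhga11, which is 7 of the 9 alpha, 4 of the 15 beta and the 1 gamma gene without a start peak at day 0. Only Pcdhb19 of 32 lost its start peak, which is 3.13% (0.079% to 16.2%), against 5.43% of all genes.

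The alpha cluster split into constant and variable members. Pcdhac1 and Pcdhac2, the C-type genes at its end, had a start peak in all 15 lists, and Pcdha7 had one in all 10 day 0 and sorted lists and in the oeControl and oeCTCF lists. Pcdha2 and Pcdha4 had none in any list. Pcdha12 had one in 9 of those 10 lists, absent from the SSEA1-Thy1- list with shCTCF. Pcdha9 and Pcdha11 had one in the GFP+ lists alone among these 10, and Pcdha1 in the GFP+ control list alone. The median alpha gene had a start peak in 4 of the 10 lists.

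In the beta cluster, Pcdhb22, the last gene and the nearest to gamma, was the single member with a start peak in all 10 day 0 and sorted lists. Pcdhb3 and Pcdhb17 each had one in 9 of these lists. Another 11 of the 22 genes had none in the 10 lists, and 10 had none in any of the 15. The median beta gene had a start peak in 1 of the 10 lists.

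In the gamma cluster 12 of 21 genes had a start peak in all 10 lists and none lacked one throughout, with a median of 10 lists. The 12 were Pcdhga3, Pcdhga4, Pcdhga5, Pcdhga6, Pcdhga7, Pcdhgb4, Pcdhgb5, Pcdhgb6, Pcdhgb7, Pcdhga12, Pcdhgc3 and Pcdhgc4. Pcdhga7, Pcdhgc3 and Pcdhgc4 kept it in all 15 lists. Pcdhgc5, the last of the C-type genes, had none in either SSEA1-Thy1- list, in the SSEA1+ control list or in any day 10 or day 12 list. The 5 C-type genes together had 4 or 5 start peaks in every list, including the short lists of day 12.

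**Figure D2:**
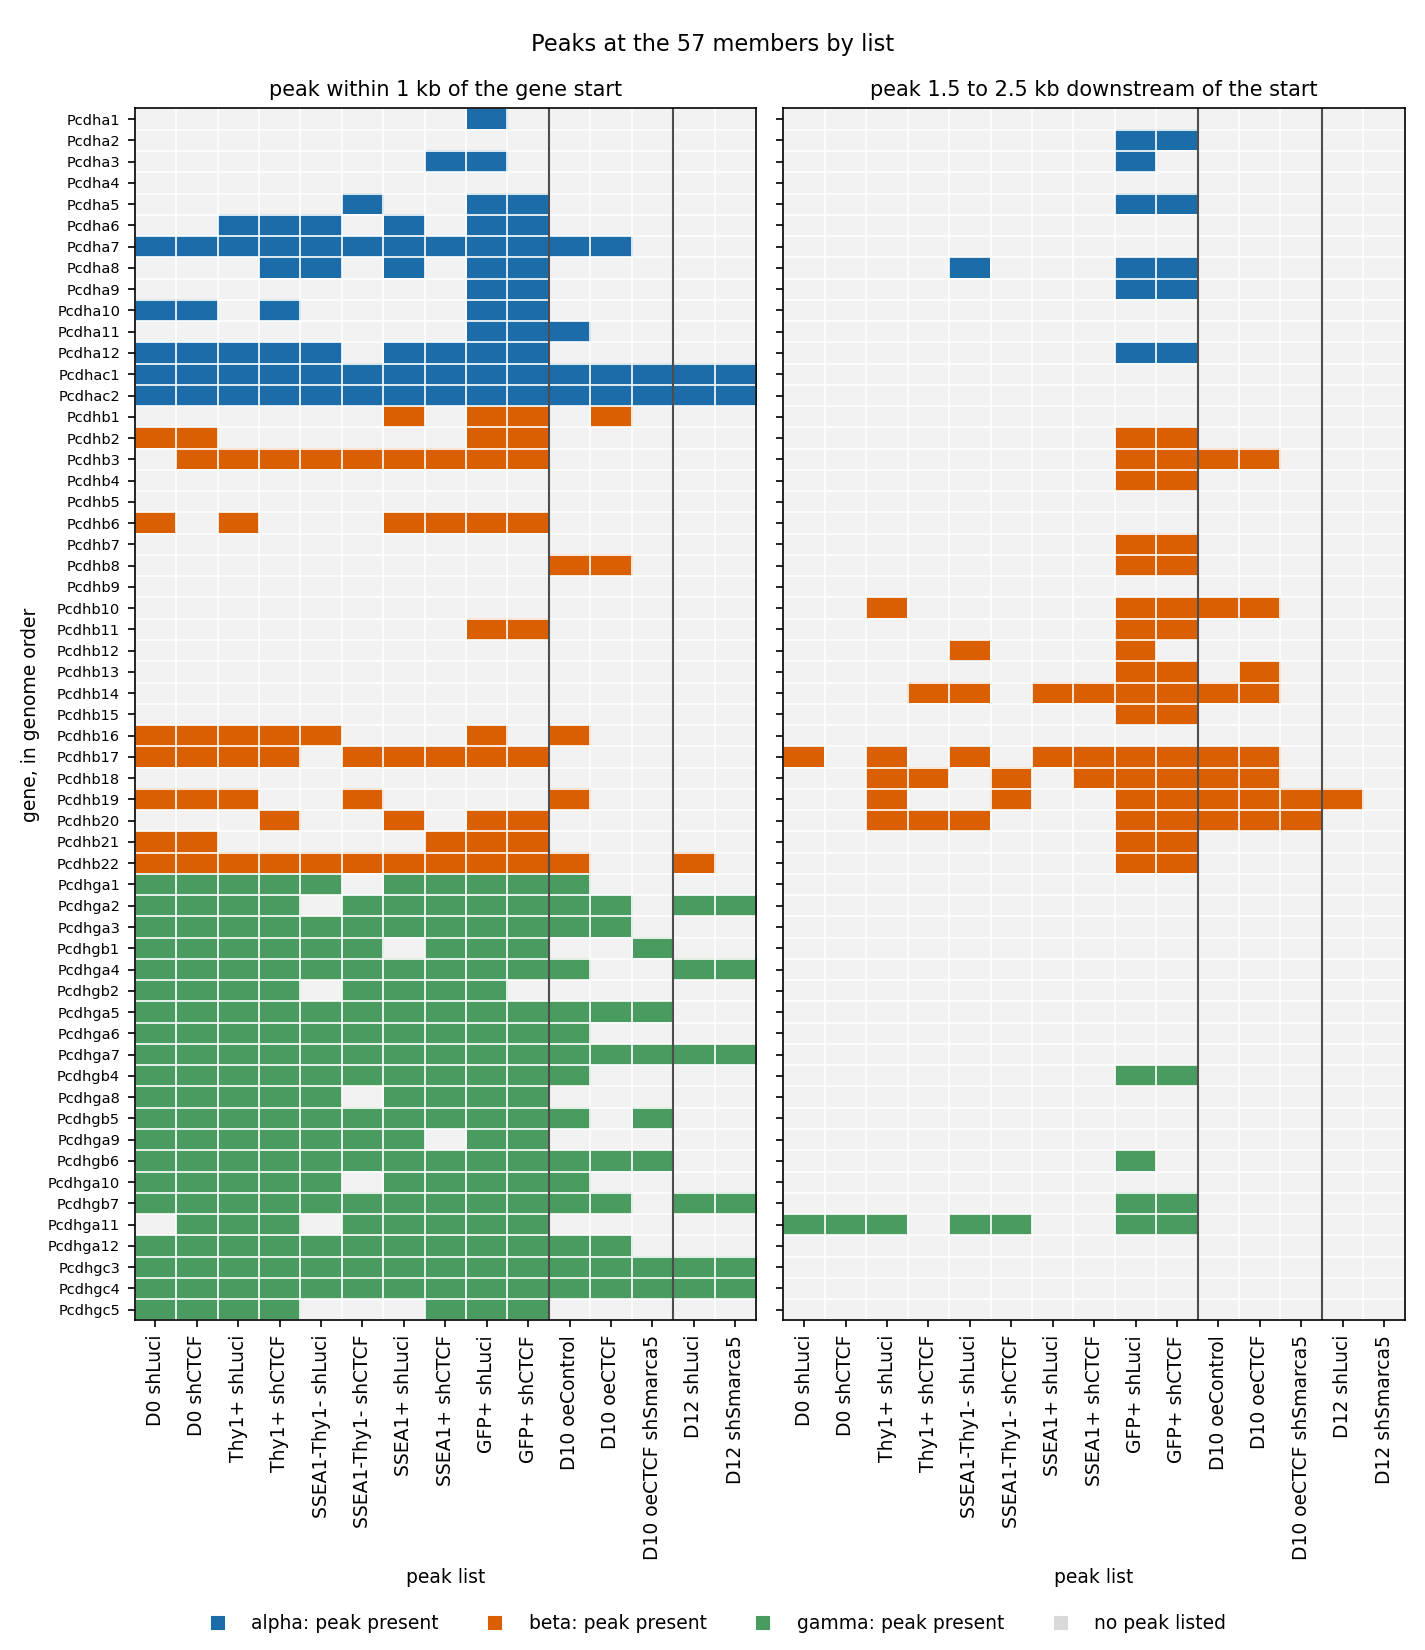
Each row is 1 of the 57 genes in genome order and each column a peak list; a coloured cell is a peak within 1 kb of the gene start (left) or 1.5 to 2.5 kb downstream of it (right). The gamma rows are filled in most day 0 and sorted lists on the left, and on the right the GFP+ columns are filled for 27 and 24 genes.

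The peaks fell into narrow classes of position. Of the 109 sites, 46 lay at member starts, with their midpoints at a median of 44 bp downstream of the start. A further 27 lay 1.5 to 2.5 kb downstream, a class set after the positions had been seen, and 36 lay elsewhere. The downstream sites had their midpoints 1.65 to 2.32 kb from the start, with a median of 2.07 kb. There was 1 site between 1 and 1.5 kb. The median beta gene is 3.42 kb long as annotated, so such a site falls within its annotated body, toward the far end, and in an alpha or gamma gene it falls within the gene. Starts of neighbouring members lie 4.15 kb or more apart, so a site 2 kb downstream of one gene does not reach the start window of the next.

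**Figure D3:**
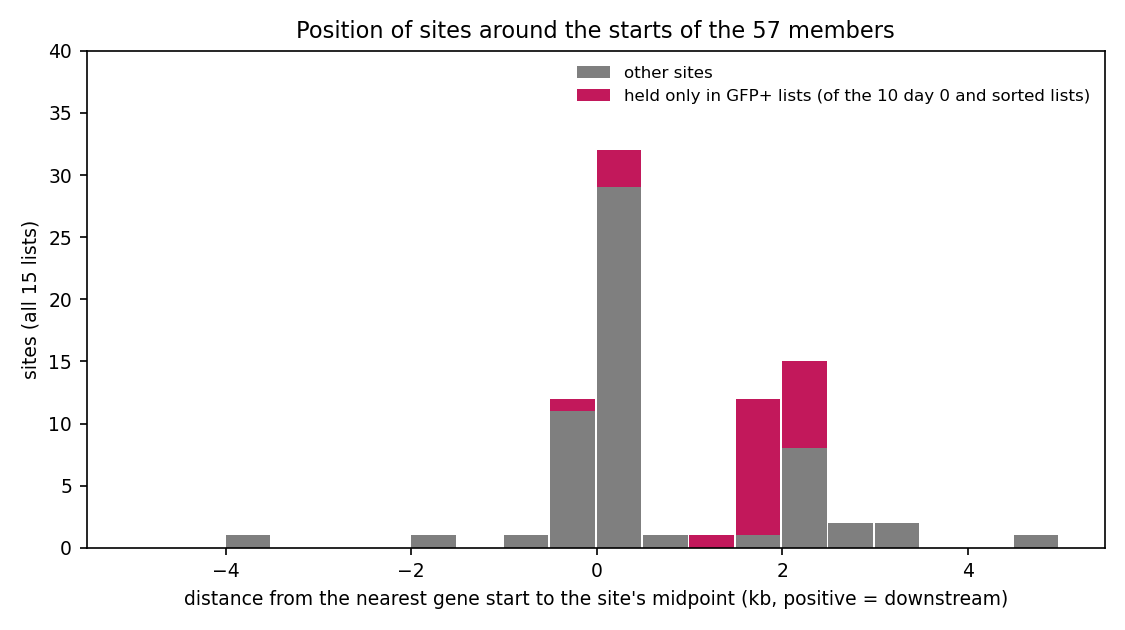
Number of sites, pooled over all 15 lists, by the distance in kb from the nearest member start to the midpoint of the site, in steps of 0.5 kb; the coloured part of a bar counts sites held only in GFP+ lists among the day 0 and sorted lists. Sites stand at the start and again at 1.5 to 2.5 kb, where 18 of 27 were held only in GFP+ lists.

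Downstream sites were the main feature of the GFP+ lists. Members with a downstream site numbered 27 in GFP+ control cells, compared with 2 in SSEA1+, 6 in SSEA1-Thy1-, 6 in Thy1+ cells and 2 at day 0. In GFP+ control cells they were 6 of 14 alpha, 17 of 22 beta and 4 of 21 gamma genes, and no C-type gene had one in any list. Between day 0 and GFP+ cells 25 of 55 members without such a site gained one, which is 45.5% (32.0% to 59.4%), against 1.81% of all genes with a known strand. Neither of the 2 members with one at day 0, Pcdhb17 and Pcdhga11, lost it, against 45.0% of all genes. Because the distance was set on these members, the comparison with all genes is a description. Over all genes 8.38% had a peak at this distance at day 0 and 6.27% in GFP+ control cells, so the direction in the locus was the opposite of that in the genome.

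Start and downstream sites were combined differently in the clusters. In GFP+ control cells, 5 of the 6 alpha genes and all 4 gamma genes with a downstream site also had a start peak. In beta 7 genes had both and 10 had the downstream site alone. Pcdhb4, Pcdhb7, Pcdhb10, Pcdhb13, Pcdhb14, Pcdhb15 and Pcdhb18 belong to the latter, with a downstream site in both GFP+ lists and a start peak in no list.

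Sites held in the GFP+ lists and in no other day 0 or sorted list were 27 of the 108 sites merged from these 10 lists, which is 25.0% (17.2% to 34.3%), against 3.49% of sites in the genome. In alpha they were 9 of 27 sites (33.3%), in beta 11 of 29 (37.9%), in the space before gamma 3 of 8 and in gamma 4 of 40 (10.0%). Of the 27, 18 were downstream sites, 4 were start sites and 5 lay elsewhere, and 23 were present in both GFP+ lists, with and without CTCF shRNA. Pcdha9, Pcdha11 and Pcdhb11 had GFP+-only start sites in both.

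At the other end, 27 sites were present in all 10 day 0 and sorted lists, of which 17 were start sites and 10 lay elsewhere, and 11 were present in all 15 lists. The latter were the start sites of Pcdhac1, Pcdhac2, Pcdhga7, Pcdhgc3 and Pcdhgc4 and 6 sites away from starts. One of these lies in the space between alpha and beta (37218111 to 37218540), 46.7 kb before Pcdhb1. A pair lies before gamma, one at an end of Taf7, a gene for a general transcription factor subunit (37644018 to 37644444), and one 5.98 kb before Pcdhga1 (37655538 to 37656053). The other 3 lie 3.15, 5.56 and 16.6 kb downstream of the start of Pcdhgc5, near the end of the gamma cluster. A site at one end of the pseudogene Pcdhgb8 and one 35.0 kb downstream of the start of Pcdhac2 were each present in 14 of 15 lists. No annotation of enhancers was used here, so none of these sites is named as one. The share of sites present in all lists over the genome is not given here, so these counts are a description of the locus.

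Sites away from starts also included ones that were absent from GFP+ cells. Of the 36 sites of this class, 12 occurred among the 10 lists but in neither GFP+ list, against 1 start site and 0 downstream sites. No genome share is given here for such sites, and over the whole list 67.6% of day 0 control peaks were missing in GFP+ control cells. These sites are therefore not set apart from the genome. A site 16.9 kb downstream of the start of Pcdhga12 was present in all 8 day 0, Thy1+, SSEA1-Thy1- and SSEA1+ lists and in neither GFP+ list. A site 5.78 kb downstream of the start of Pcdhac2 was present in the 4 day 0 and Thy1+ lists alone. A site 3.09 kb downstream of the start of Pcdha6 was present in the 6 Thy1+, SSEA1-Thy1- and SSEA1+ lists alone.

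The second question was what CTCF knockdown did at these genes. Locus peaks with control and with CTCF shRNA were 57 and 56 at day 0. The numbers were 67 and 63 in Thy1+, then 54 and 51 in SSEA1-Thy1- cells. SSEA1+ cells had 53 and 57 peaks and GFP+ cells 92 and 86. In the same order the relative log2 was -0.03 (-0.59 to 0.53), -0.22 (-0.74 to 0.30), -0.20 (-0.78 to 0.38), -0.33 (-0.90 to 0.24) and -0.28 (-0.72 to 0.16). All 5 values were below 0, all 5 intervals included 0, and lists with CTCF shRNA were longer than their controls in all 5 pairs. Without regard to list length, the log2 ratio in SSEA1+ cells was 0.10 and thus of the opposite sign. By cluster the relative values ran from -0.41 to 0.09 in alpha, -0.55 to -0.20 in beta and -0.34 to -0.01 in gamma, again with all intervals including 0. The intervals are wide, so a difference of a few peaks per cluster was not detectable. Of the 10 pluripotency markers, 3 had a peak in Thy1+ control cells and 6 with CTCF shRNA, and in the other 4 pairs the numbers differed by at most 1.

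**Figure D4:**
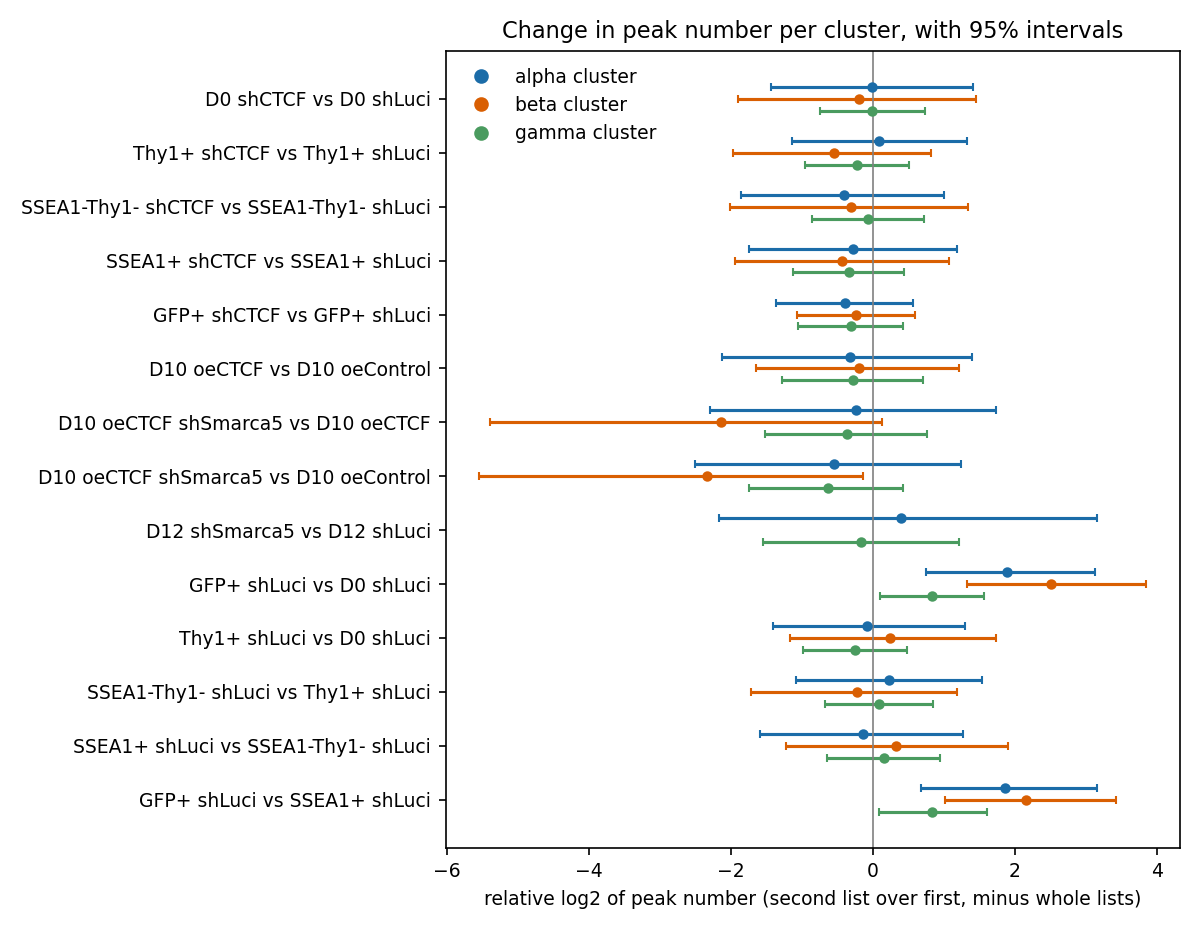
Relative log2 of peak number in the alpha, beta and gamma clusters for each comparison, as points with exact 95% intervals that cover counting error over peaks only; 0 means that the cluster moved with the whole lists. Points of the CTCF shRNA pairs lie between -0.55 and 0.09 with intervals that include 0, and those of GFP+ against day 0 lie at 1.89, 2.51 and 0.84; beta at day 12 has no point because 1 list held 0 peaks.

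Individual peaks were compared next, a lost peak being one of the control list without overlap in the other list and a gained peak the reverse. At day 0, 3 of 57 control peaks in the locus were lost with CTCF shRNA (5.26%, 1.10% to 14.6%), against 4.45% of the whole list, and 2 of 56 were gained (3.57%), against 4.85%. In Thy1+ cells 8 of 67 were lost (11.9%, 5.30% to 22.2%), against 8.2%, and 4 of 63 gained (6.35%), against 16.3%. In SSEA1-Thy1- cells 12 of 54 were lost (22.2%, 12.0% to 35.6%), against 8.74%, and 9 of 51 gained (17.6%), against 15.8%. In SSEA1+ cells 6 of 53 were lost (11.3%, 4.27% to 23.0%), against 7.99%, and 10 of 57 gained (17.5%, 8.75% to 29.9%), against 32%. In GFP+ cells 9 of 92 were lost (9.78%, 4.57% to 17.8%), against 14.3%, and 3 of 86 gained (3.49%, 0.725% to 9.86%), against 24.3%. For the locus, the share lost lay above that of the whole list beyond its interval in SSEA1-Thy1- cells alone. By cluster, alpha (4 of 11, 36.4%, 10.9% to 69.2%) and beta (5 of 8, 62.5%, 24.5% to 91.5%) did so there. Gamma did not (2 of 29). In Thy1+ cells beta did so (5 of 12, 41.7%, 15.2% to 72.3%), unlike alpha (0 of 12) and gamma (2 of 35). The share gained in the locus lay below that of the whole list beyond its interval in Thy1+, SSEA1+ and GFP+ cells. Beta in SSEA1-Thy1- cells gained 4 of 7 (57.1%, 18.4% to 90.1%), above the whole list. The whole lists were not split by position. At gene starts alone, members gained 12.0% in Thy1+ and 15.4% in SSEA1+ cells, against 5.07% and 7.29% of all genes. In GFP+ cells it was 0%, against 3.39%, and the intervals of all 3 included the share of all genes.

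**Figure D5:**
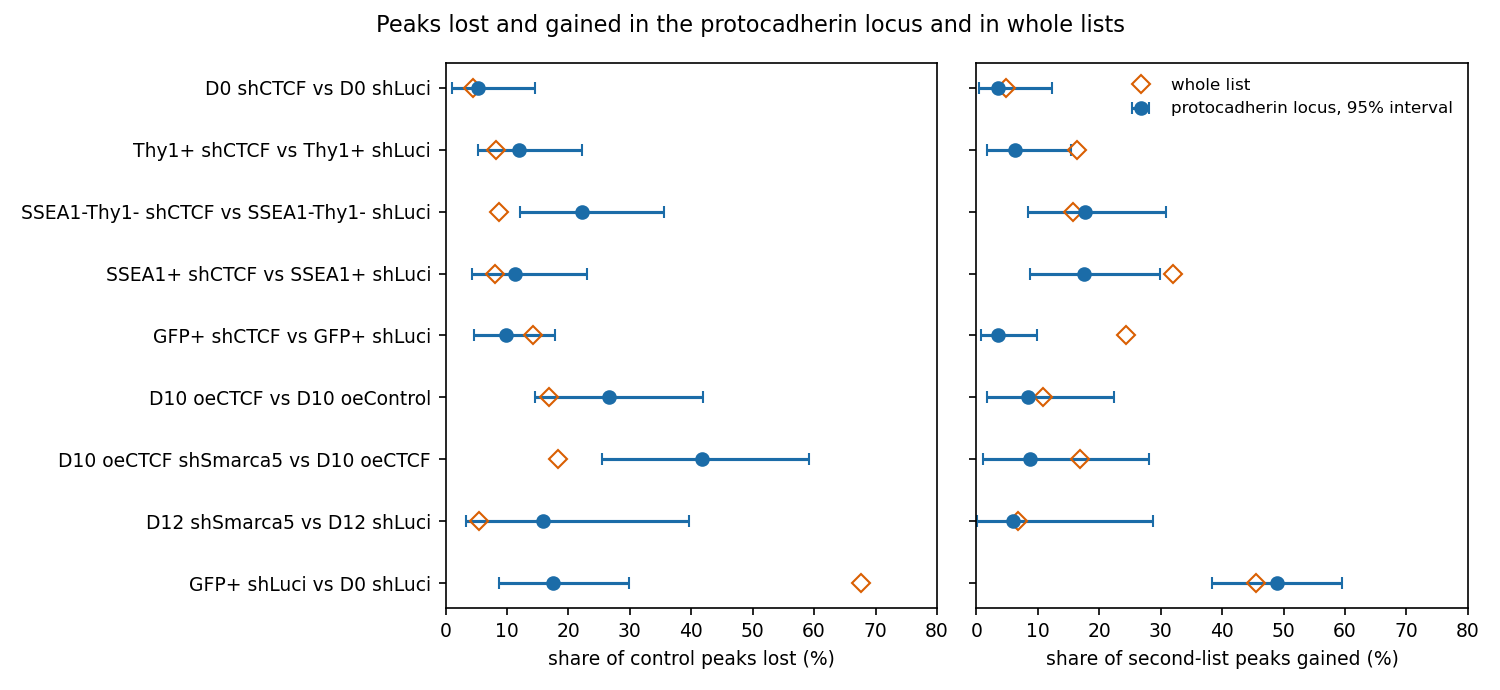
Share in percent of first-list peaks that are lost (left) and of second-list peaks that are gained (right) in the protocadherin locus, as points with exact Clopper-Pearson 95% intervals, and in the whole list, as diamonds. The locus lies above the whole list beyond its interval for losses in SSEA1-Thy1- cells and with Smarca5 shRNA at day 10. It lies far below the whole list for losses from day 0 to GFP+ cells.

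At gene starts, 7 members differed between the lists of the pair at day 0 or in Thy1+ cells, and Pcdhb6 in both. At day 0 Pcdhb6 lost its start peak (1 of 32 members, against 1.27% of all genes), and Pcdhb3 and Pcdhga11 gained one (2 of 25, against 1.47%). In Thy1+ cells Pcdhb6 and Pcdhb19 lost theirs (2 of 32, against 1.07%), and Pcdha8, Pcdha10 and Pcdhb20 gained one (3 of 25, against 5.07%).

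More members differed in the intermediate populations, 13 in SSEA1-Thy1- and 9 in SSEA1+ cells. In SSEA1-Thy1- cells Pcdha6, Pcdha8, Pcdha12, Pcdhb16, Pcdhga1, Pcdhga8 and Pcdhga10 lost their start peak, which is 26.9% of 26 members (11.6% to 47.8%), against 1.58% of all genes. Pcdha5, Pcdhb17, Pcdhb19, Pcdhga2, Pcdhgb2 and Pcdhga11 gained one, which is 19.4% of 31 (7.45% to 37.5%), against 4.01%. In SSEA1+ cells Pcdha6, Pcdha8, Pcdhb1, Pcdhb20 and Pcdhga9 lost theirs (5 of 31, 16.1%, 5.45% to 33.7%), against 1.45%. Pcdha3, Pcdhb21, Pcdhgb1 and Pcdhgc5 gained one (4 of 26, 15.4%, 4.36% to 34.9%), against 7.29%. The interval of these gains included the share of all genes. Losses and gains nearly balanced in both, so the totals of 26 and 25 and of 31 and 30 members with a start peak hide the exchange.

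In GFP+ cells the start peaks of Pcdha1, Pcdha3, Pcdhb16 and Pcdhgb2 were lost (4 of 43, 9.30%, 2.59% to 22.1%), against 1.4% of all genes, and 0 of 14 members gained one, against 3.39%. Members with a start peak numbered 43 and 39 there. Of the C-type genes, Pcdhgc5 in SSEA1+ cells was the single one whose start peak differed between the lists of a CTCF shRNA pair.

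Downstream sites were few outside GFP+ cells, so their shares have wide intervals. At day 0, 1 of 2 was lost with CTCF shRNA, at Pcdhb17 (against 4.16% of all genes with one), and 0 of 55 members gained one (against 0.649%). In Thy1+ cells 4 of 6 were lost, at Pcdhb10, Pcdhb17, Pcdhb19 and Pcdhga11 (66.7%, 22.3% to 95.7%, against 10.3%), and Pcdhb14 gained one (1 of 51, against 1.55%). In SSEA1-Thy1- cells 5 of 6 were lost, at Pcdha8, Pcdhb12, Pcdhb14, Pcdhb17 and Pcdhb20 (83.3%, 35.9% to 99.6%, against 7.42%), and Pcdhb18 and Pcdhb19 gained one (2 of 51, against 1.19%). In SSEA1+ cells 0 of 2 were lost (against 8.96%), and Pcdhb18 gained one (1 of 55, against 2.18%). In GFP+ cells 3 of 27 were lost, at Pcdha3, Pcdhb12 and Pcdhgb6 (11.1%, 2.35% to 29.2%, against 8.93%), and 0 of 30 members gained one (against 0.97%).

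Few single sites were lost again and again. The downstream site of Pcdhb17 was lost in 3 of the 5 CTCF shRNA pairs, at day 0 and in Thy1+ and SSEA1-Thy1- cells, and was present in both lists of the SSEA1+ and GFP+ pairs. It was the single site of the locus lost in 3 or more pairs, against 0.205% of all sites of the 10 lists. No site of the locus was gained in 3 or more pairs, against 1.21%, and 0 sites were lost in all 5. Sites lost in 2 pairs included the starts of Pcdha6, Pcdha8, Pcdhb6 and Pcdhb16.

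The third question concerned CTCF overexpression at day 10. The locus held 45 peaks with the control vector and 36 with CTCF, at a relative log2 of -0.22 (-0.90 to 0.44). Alpha had 8 and 6 peaks, beta 11 and 9, and gamma 22 and 17, with all intervals of the relative values including 0. By its midpoint the start peak of Pcdhb1 with CTCF fell just before beta, and counted by gene beta had 11 and 10. Of the 45 peaks, 12 were lost (26.7%, 14.6% to 41.9%), against 16.9% of the whole list, and 3 of 36 were gained (8.33%), against 10.9%.

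Of the 12 lost peaks, 10 lay at gene starts, 0 at downstream sites and 2 elsewhere, and the difference between these classes was not tested. Members with a start peak numbered 23 with the control vector and 14 with CTCF, and 10 of the 23 lost it, which is 43.5% (23.2% to 65.5%), against 1.24% of all genes. These were Pcdha11, Pcdhb16, Pcdhb19, Pcdhb22, Pcdhga1, Pcdhga4, Pcdhga6, Pcdhgb4, Pcdhgb5 and Pcdhga10, which is 6 of the 15 gamma, 3 of the 4 beta and 1 of the 4 alpha genes with a start peak in the control. Pcdhb1 gained one (1 of 34, against 3.37%). All 7 downstream sites of the control, which lay at beta genes, were kept, against 9.23% lost over all genes, and Pcdhb13 gained one (1 of 50, against 0.449%). Start peaks of Pcdhac1, Pcdhac2, Pcdhgc3 and Pcdhgc4 were present in both lists. Pluripotency markers with a peak, scored as above, numbered 7 of 10 with the control vector and 9 with CTCF, Pou5f1 and Esrrb being the added ones. Pou5f1 also had a start peak in both day 0 lists, and Esrrb had one in the oeCTCF list alone of all 15. Fibroblast markers numbered 8 and 8. The part of such marker differences in the protocadherin values was not tested.

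The fourth question was what Smarca5 knockdown did when CTCF was overexpressed. The locus held 36 peaks with CTCF alone and 23 with Smarca5 shRNA in addition, at a relative log2 of -0.62 (-1.44 to 0.17), although both whole lists were of nearly equal length at 67561 and 66321. Alpha had 6 and 5 peaks (-0.24, -2.29 to 1.74), beta 9 and 2 (-2.14, -5.39 to 0.13) and gamma 17 and 13 (-0.36, -1.52 to 0.77). The 3 intervals included 0. With the start peak of Pcdhb1 counted to its gene, beta had 10 and 2 peaks, for which no interval was computed. Set against the control vector, with 11 beta peaks and 45 in the locus, the relative log2 was -2.33 for beta (-5.55 to -0.14) and -0.84 for the locus (-1.63 to -0.09).

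Of the 36 peaks, 15 were lost with Smarca5 shRNA, which is 41.7% (25.5% to 59.2%), against 18.3% of the whole list, and 2 of 23 were gained (8.70%), against 16.8%. The lost peaks comprised 7 of 14 at starts, 6 of 8 downstream and 2 of 14 elsewhere. Pcdha7, Pcdhb1, Pcdhb8, Pcdhga2, Pcdhga3, Pcdhgb7 and Pcdhga12 lost their start peak (50.0%, 23.0% to 77.0%), against 4.45% of all genes, and Pcdhgb1 and Pcdhgb5 gained one (2 of 43, against 1.69%). Downstream sites were lost at Pcdhb3, Pcdhb10, Pcdhb13, Pcdhb14, Pcdhb17 and Pcdhb18 (75.0%, 34.9% to 96.8%), against 13.6%, and 0 of 49 members gained one, against 0.551%. Pcdhb19 and Pcdhb20 kept theirs, and these made up the 2 beta peaks left. The 4 C-type genes with a start peak at day 10 kept it.

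Marker genes differed in this pair as well. Pluripotency markers with a peak numbered 7 of 10 with the control vector, 9 with CTCF overexpression and 5 with Smarca5 shRNA in addition, those absent from the last but present with CTCF alone being Pou5f1, Nanog, Esrrb and Dppa5a, and fibroblast markers numbered 8 in each of the 3 lists. Neural markers numbered 9, 8 and 8. Whether the smaller number of protocadherin peaks goes with the number of cells that had reached a late state was not tested.

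At day 12, without CTCF overexpression, the locus held 19 peaks with control and 17 with Smarca5 shRNA (-0.18, -1.22 to 0.84). Alpha had 3 and 4, beta 2 and 0, and gamma 11 and 10. Of the 19 peaks, 3 were lost (15.8%, 3.38% to 39.6%), against 5.4% of the whole list, and 1 of 17 was gained (5.88%), against 6.81%. Pcdhb22 lost its start peak (1 of 9 members, against 1.09%), and 0 of 48 gained one, against 0.93%. The single downstream site, at Pcdhb19, was lost as well, which left the beta cluster without a peak. These lists are the shortest of the study, and members with a start peak were 15.8% of the 57 with control shRNA, against 57.6% of all genes.

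Other genes of the family and of its pathway were taken as lists for comparison. They were scored at the start where the strand was known and otherwise at either gene end, which holds for 3 of 12 protocadherins outside the clusters, 5 of 19 regulators, 7 of 11 partners and all 33 neighbouring genes. Their counts are therefore not set against those of the clustered members. Of the 12 protocadherins outside the clusters, 10 had such a peak in each of the 10 day 0 and sorted lists and 8 to 10 at days 10 and 12, and Pcdh9 and Pcdh12 had none in any list. Pcdh15, a protocadherin of sensory hair cells, lost its start peak with Smarca5 shRNA at day 10, the single one of that family list to do so. Of 19 regulators of the clusters, such as CTCF, cohesin subunits and DNA methyltransferases, 13 to 15 had one in every list, and of 11 partners in binding and signalling 9 or 10. Rad21, a cohesin subunit, had one in the SSEA1+ control list and the GFP+ list with CTCF shRNA only. Nipbl, Wapl, Dnmt1 and Dnmt3a had none in any list. Only the annotated gene ends were scored, so a missing peak is not read as a closed gene. Of 33 genes within 500 kb of the locus or between its clusters, 28 had a peak at either end at day 0 and 30 in GFP+ control cells, and over all lists 26 to 30.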

How the data were processed

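ATAC-seq of 32 mouse samples was analysed as 15 deposited peak lists, 1 per group, as each sample's description names the list of its group. The submitters' processing notes name MACS2, Bowtie2, Picard, SAMtools, FastQC, cutadapt and Trim Galore, and the builds GRCm38 and mm10. For versions, peak threshold, read shift and how samples of a group were joined, the answer is not given in the sources used here. Lists give positions of intervals of 400 bp. The score column deposited by the authors is 0 throughout, so peaks could not be ranked, and the depth is unknown.

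Overlapping intervals within a list were merged. A peak belonged to the locus and to a cluster or space by its midpoint, so a start peak at a cluster's edge could fall in the space before it. Only where merged sites were classed by position did start and downstream sites go with their gene's cluster. Between lists, peaks were shared at an overlap of 1 bp, since lists of different sets have only 0.664% to 0.887% of positions in common (44.0% to 95.6% within a set: day 0 and sorted, day 10, day 12). Gene starts are the low-coordinate ends in the RefSeq table, all members being taken as plus strand. Marker and comparison genes without a known strand were scored at either end. Background shares at starts and downstream come from 17492 genes with a strand in RefSeq, none on chromosome 18. Intervals are exact (Clopper-Pearson, or conditional binomial for a log2 ratio). Scripts ran in Python 3.11.15 with SciPy 1.17.1 and were tested on simulated data.

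Members and gene lists were chosen with earlier results of these data known. Named with values are the C-type genes, members with a start peak in all 10 day 0 and sorted lists, members whose start peak differs within a comparison (at most 10), and sites in all lists or lost or gained in 3 or more of 5 CTCF shRNA pairs. Members with a downstream site, and sites and members outside these rules, were named after their values were seen. Alternatives covered the reference number of peaks, merging, cluster extent, overlap and the windows. Sequence features of the members' promoters and proteins were not analysed here.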

Additional observations from a re-analysis of the deposited data

Results flagged for a closer look

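With 1 list per population, the change in peak number with CTCF shRNA had opposite signs in different populations, and the difference between populations was not tested. In the alpha cluster the number with CTCF shRNA minus control was 2 in Thy1+ and 1 in SSEA1+ cells, but -3 in GFP+ and -2 in SSEA1-Thy1- cells. In the gamma cluster it was 2 in SSEA1+ and 1 in SSEA1-Thy1- cells, but -3 in GFP+ and -2 in Thy1+ cells. Over the locus it was 4 in SSEA1+ cells, but -6 in GFP+, -4 in Thy1+ and -3 in SSEA1-Thy1- cells and -1 at day 0. The positive value of the locus stood where the list with CTCF shRNA was longest relative to its control, at 183640 against 135749 peaks.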

How the results depend on the processing

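No paired analysis was possible because each group has 1 peak list, and leaving out a replicate or raising the peak threshold could not be done either, the scores being 0. The alternative source of start positions was not run, since the promoter table holds 0 rows on chromosome 18. No value whose interval excluded 0 changed sign. Of 39 relative log2 values, all 39 moved by less than their intervals when set against chromosome 18, with clusters extended by 20 kb or without merging. As plain ratios, GFP+ against day 0 gave 0.085 for gamma and 0.69 for the locus, and 37 of 39 values held. Of those whose interval included 0, 4 had a positive plain ratio and a negative relative value, namely alpha (0.15), gamma (0.096) and the locus (0.10) with CTCF shRNA in SSEA1+ cells and gamma in SSEA1-Thy1- cells (0.049). All 20 lost and gained shares held at an overlap of 200 bp. A count of members was said to hold where it changed by a factor of at most 1.5. With a start window of 0.5 kb all 15 counts of members held. With 2.5 kb, which takes in the downstream sites, 14 of 15 did, the oeCTCF list giving 22. Counts that held by this rule could still differ, and the GFP+ control list gave 54 at 2.5 kb and 43 at 1 kb. Per cluster 7 of 45 counts moved beyond this limit at 2.5 kb. Downstream sites at 1.25 to 3 kb were added after seeing the data. The counts were then 2 in the day 0 list with CTCF shRNA, 5 in the SSEA1+ list with CTCF shRNA and 2 in the day 12 control list. The other 12 held by the same rule, with 29 in the GFP+ control list, compared with 27 at 1.5 to 2.5 kb. GFP+-only sites, in alternatives added after seeing the data, were 28 (25.9%, against 3.66% of the genome) without the SSEA1+ list with CTCF shRNA and 29 (27.1%, against 4.26%) without the Thy1+ lists.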
